A study of Saccharomyces cerevisiae with 6 samples.

Results

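The nuclear genes that encode the electron-transferring enzymes of the yeast respiratory chain and the mitochondrial ATP synthase were followed in 3 strains of Saccharomyces cerevisiae exposed to compound 089. The members are a list of 38 gene names, matched to their systematic open reading frame names. The rule sets them by enzyme and uses no measured value, but the list was drawn up with earlier results of these data known. They comprise 3 NADH dehydrogenases, 9 subunits of complex III, 2 isoforms of cytochrome c, 9 subunits of complex IV and 15 genes of the ATP synthase. A value was available for 37 of the 38, among 6362 genes in all. ATP1, the alpha subunit of the F1 head, was not analysed here.

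In the inner mitochondrial membrane, electrons from NADH, succinate and other donors pass through coenzyme Q to complex III, from there through cytochrome c to complex IV, and then to oxygen. S. cerevisiae has no proton-pumping complex I and uses single-chain NADH dehydrogenases in its place. The proton gradient built by complexes III and IV drives the ATP synthase, whose F1 head makes ATP and whose Fo part and stalk sit in and on the membrane. In this yeast the nuclear genes of these enzymes are known to be repressed in glucose and induced when cells respire, largely through the Hap2/3/4/5 activator.

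The parental strain was BY4742, a haploid laboratory strain of mating type alpha with mutations in his3, leu2, lys2 and ura3. The 2 other strains were BY4742derg6, in which a kanMX4 cassette replaces ERG6, a methyltransferase of ergosterol synthesis, and BY4742dsnq2, in which kanMX replaces SNQ2, a multidrug efflux pump. Cells of each strain were exposed to 089 at 0.2 mM for 4 h in glucose-containing rich medium at pH 4.8 and at high cell density, and each array set their RNA against RNA of untreated cells of the same strain. All strains thus share the BY4742 markers, the medium and the cell density, and each strain had 2 arrays, biological replicates per the series text. The values are taken as log2 ratios of treated over untreated RNA, so 1 is a doubling and -1 a halving. This direction is likely but not stated in the sources used here, and the opposite one would turn every sign below.

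A gene is said to have risen or fallen where limma, fitted over all 6362 genes with 1 mean per strain, gave an adjusted p below 0.05. Values after ± are standard errors of that fit, with n = 2 arrays per strain. Ratios hold no level, so the abundance of one gene is not set against that of another. The strain differences erg6 deletion minus parental and snq2 deletion minus parental share the parental arrays and are given side by side. In these RNA pools, a smaller number of cells holding a transcript and less of it per cell cannot be told apart.

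Replicate arrays differed by a median of 0.10 over the members in the parental strain, 0.11 in the erg6 deletion strain and 0.11 in the snq2 deletion strain, against 0.15, 0.20 and 0.17 over all genes. On the erg6 deletion arrays 103 and 153 genes lay at or below -3, against 5 to 31 on the other arrays, and none of the members did. The 683 control spots, named blank or empty, had medians of 0.57, 1.76 and 0.45 in the parental, erg6 deletion and snq2 deletion strains. The central 95% of their values spanned -1.36 to 2.49, -1.87 to 3.57 and -1.43 to 2.00 in the same order. These spots passed the genes' test in 43.2%, 72.3% and 40.6% of cases, so a call alone does not set a gene apart from a spot with no named probe. ERG6 gave -0.65 and -0.85 on the arrays of its own deletion strain, and SNQ2 gave 0.22 and 0.025 on those of its deletion strain. ERG6 thus passed the limma test as fallen (-0.75 ± 0.11, adjusted p = 0.00347) in the strain that lacks the gene. SNQ2 did not pass in its deletion strain (adjusted p = 0.308). A ratio within a strain does not check a deletion. Nor do ratios show whether the markers of alpha cells are present. Of the 4 alpha cell genes, 0 rose and 1 fell in the parental strain, and 0 rose and 4 fell in the erg6 deletion strain. In the snq2 deletion strain 2 rose and 1 fell. Of 4 a cell genes 0 rose in any strain, and 1, 2 and 1 fell in the parental, erg6 deletion and snq2 deletion strains. Of all genes, 27.3%, 23.2% and 25.3% rose and 26.7%, 31.5% and 26.2% fell in the same order.

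The respiratory genes moved in opposite directions in the parental and the erg6 deletion strain. In parental cells 24 of the 37 fell and 4 rose, with a median log2 ratio of -0.62, against 26.7% of all genes that fell, 27.3% that rose and a median of -0.021 over all genes. In the erg6 deletion strain 28 rose and 4 fell, with a median of 0.97, against 23.2% of all genes that rose, 31.5% that fell and a median of -0.11. The snq2 deletion strain lay between them: 18 rose and 6 fell, with a median of 0.34, against 25.3% of all genes that rose, 26.2% that fell and a median of -0.027. A change of at least 2-fold was reached by 10 members downward and 1 upward in parental cells, against 7.43% and 8.82% of all genes. Without ERG6, 18 reached it upward and 1 downward, against 5.66% and 6.60%, and in the snq2 deletion strain 4 upward and 1 downward, against 5.33% and 10.1%.

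The same split stood on every array. Over the members, the median log2 ratio was -0.47 and -0.51 in the parental replicates, 0.94 and 0.96 in those of the erg6 deletion, and 0.29 and 0.36 in those of the snq2 deletion. Below 0 were 29 of 37 members on each parental array, 6 and 7 in the erg6 deletion replicates, and 14 and 13 in the snq2 deletion replicates. In 31 members (83.8%) both parental arrays lay below both erg6 deletion arrays, against 35.3% of all genes. For 26 members (70.3%) the 6 arrays fell into 3 separate steps, parental lowest, snq2 deletion in the middle and erg6 deletion highest, an order seen in 9.97% of all genes. The plot of the member values by array shows these steps gene by gene.

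**Figure D1:**
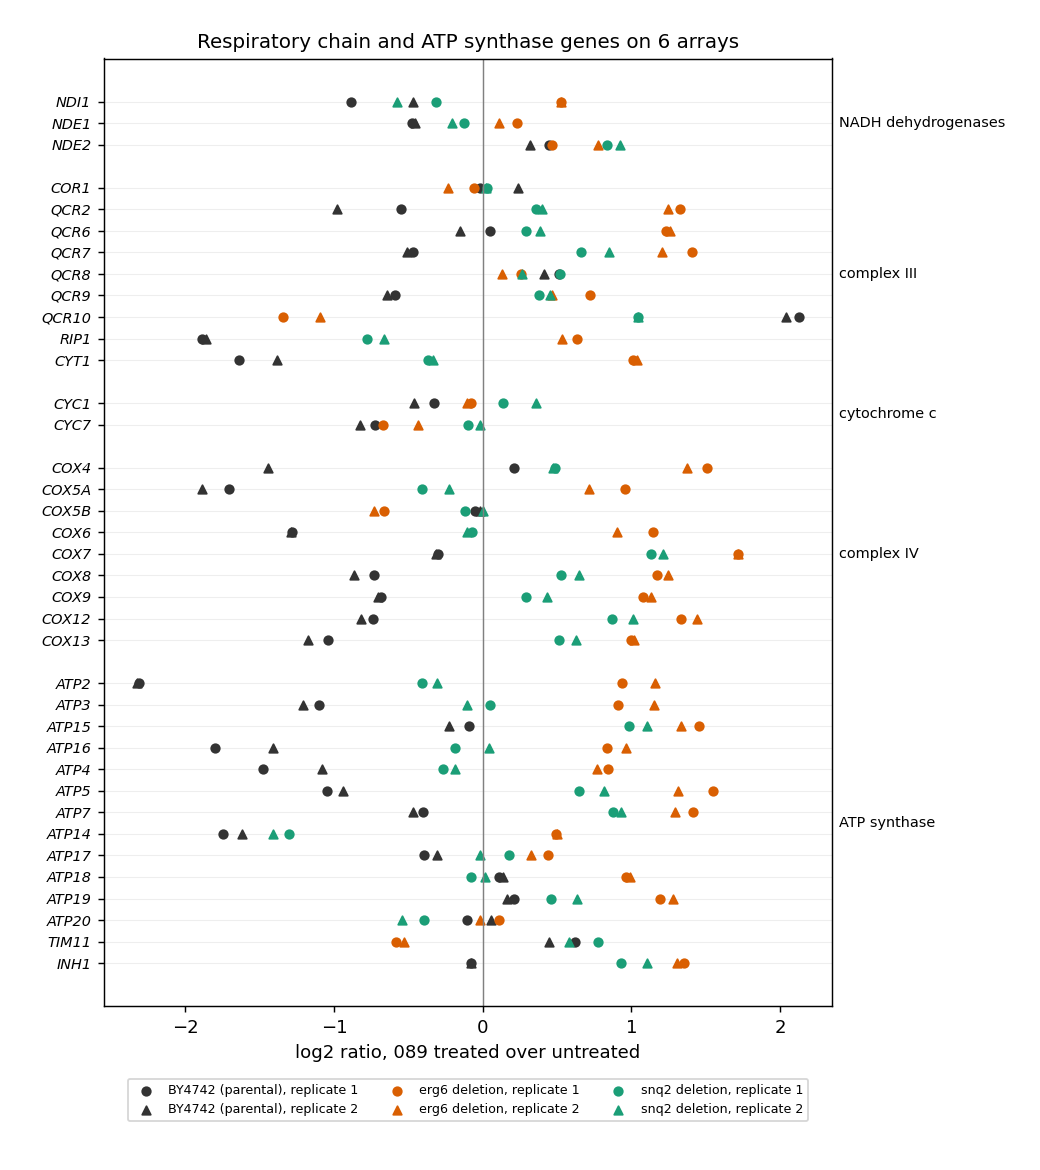
Log2 ratio of treated over untreated RNA (x axis) for each of the 37 genes (y axis, grouped by enzyme) on each of the 6 arrays, with colour for the strain and shape for the replicate. Parental points mostly lie left of 0 and erg6 deletion points right of it, with QCR10 and TIM11 the other way round and COX4 split between the parental replicates.

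Measured as the difference between strains, 28 members were higher and 3 lower in the erg6 deletion strain than in the parental strain, by the same test, against 25.4% of all genes higher and 31.4% lower. The median difference was 1.79, and -0.13 over all genes. Between the snq2 deletion and parental strains 24 members were higher and 2 lower, against 16.4% and 22.8% of all genes, with a median difference of 1.05, and -0.090 over all genes. Between the erg6 deletion and snq2 deletion strains 23 were higher and 4 lower, against 23.0% and 26.5% of all genes, with a median difference of 0.55, and -0.079 over all genes. The 683 control spots had median differences of 1.13, -0.12 and 1.23 in the same order, and 50.2%, 12.2% and 46.7% of them passed. Between the erg6 deletion and snq2 deletion strains the control spot median thus lay above that of the members. The 31 members called between the erg6 deletion and parental strains numbered 31 again with any single array left out.

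Control spots bear on these sizes. In parental cells 6 members, RIP1, CYT1, COX5A, ATP2, ATP16 and ATP14, lay outside the central 95% of the control spots, all below it, against 3.96% of all genes outside it on either side. No member lay outside that range in the erg6 deletion or the snq2 deletion strain, against 3.03% and 5.44% of all genes. In the erg6 deletion strain the highest member mean, 1.72 for COX7, lay below the control spot median of 1.76, so all members did. The empty spots had a median of 2.11 in the erg6 deletion strain, 0.70 in the parental strain and 0.55 in the snq2 deletion strain. For the differences between strains, 2 members (QCR10 and ATP2) lay outside it between erg6 deletion and parental, a share of members (5.41%) near the 4.12% of all genes. Between snq2 deletion and parental 7 did (COX5A, COX7, COX12, COX13, ATP2, ATP16 and ATP5), against 5.44% of all genes, and between the deletion strains 1 did (QCR10), against 4.18%. The part of spot background in the rise of the members in the erg6 deletion strain was not tested.

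**Figure D2:**
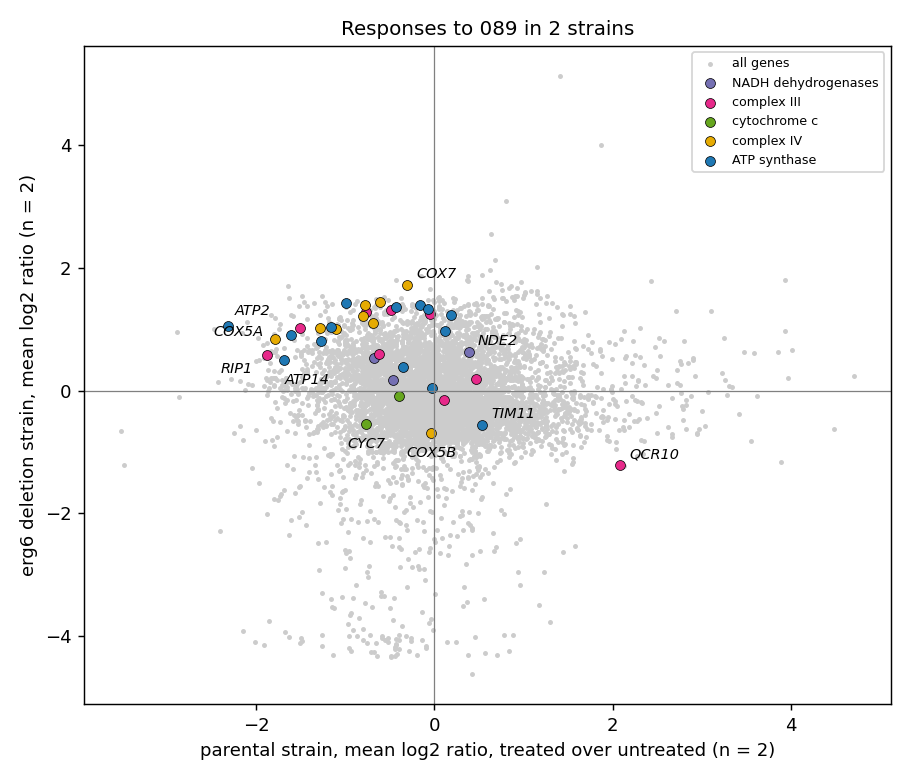
Mean log2 ratio in the parental strain (x axis) against that in the erg6 deletion strain (y axis), n = 2 arrays each, for all 6362 genes (grey) and for the 37 members (coloured by enzyme). Most members sit at the upper left, 21 of them past the test in both strains. Among the members QCR10 lies farthest to the lower right, where TIM11 also sits.

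By the combination of calls, 21 members (56.8%) fell in parental cells and rose in the erg6 deletion strain, against 8.36% of all genes, while 2 (5.41%), QCR10 and TIM11, did the reverse, against 10.1% of all genes. Of the 21, the snq2 deletion strain had 10 rising (QCR2, QCR7, QCR9, COX7, COX8, COX9, COX12, COX13, ATP5 and ATP7), 5 falling (NDI1, RIP1, CYT1, ATP2 and ATP14) and 6 that did not pass (COX5A, COX6, ATP3, ATP16, ATP4 and ATP17). COR1 passed in none of the strains and NDE2 rose in all 3. Across the 37 members, parental and snq2 deletion responses gave a Spearman rho of 0.50 and a Pearson r of 0.57, against rho 0.45 and r 0.44 over all genes. Erg6 deletion and snq2 deletion responses gave rho 0.46 and r 0.25, against 0.20 and 0.27 over all genes, and parental and erg6 deletion responses rho -0.23 and r -0.44, against -0.053 and 0.031. Without QCR10 and TIM11 the members' values were rho 0.44 and r 0.52, rho 0.64 and r 0.51, and rho -0.095 and r -0.17 in the same order. These are descriptions across genes that share the same 6 arrays, and they carry no p.

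NDI1 feeds electrons from NADH of the matrix into coenzyme Q, while NDE1 and NDE2 take them from cytosolic NADH. The 3 genes differed: NDI1 fell in parental cells and rose in the erg6 deletion strain, NDE1 fell in parental cells alone, and NDE2 rose in every strain. NDI1 gave -0.88 and -0.47 in the parental replicates, 0.53 and 0.53 in those of the erg6 deletion and -0.31 and -0.57 in those of the snq2 deletion. NDE1 gave -0.47 and -0.45 in parental cells, 0.23 and 0.11 without ERG6 and -0.13 and -0.20 without SNQ2. NDE2 gave 0.44 and 0.32 in the parental replicates, 0.47 and 0.78 in those of the erg6 deletion and 0.84 and 0.93 in those of the snq2 deletion. The NDI1 arrays of the erg6 deletion strain were both above 0 and those of the other strains, which overlapped each other, all below it, whereas all 6 NDE2 arrays were above 0.

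Between the erg6 deletion and parental strains NDI1 differed by 1.21 ± 0.18 (adjusted p = 0.00322) and NDE1 by 0.63 ± 0.12 (adjusted p = 0.00641), while NDE2 differed by 0.24 ± 0.15 and did not pass (adjusted p = 0.216). NDE2, the highest of the 3 in each strain, had its largest mean in the snq2 deletion strain, 0.88 ± 0.11. In parental cells the calls of NDI1, NDE1 and NDE2 were lost without replicate 1 (adjusted p 0.0716 to 0.214), those of NDE1 and NDE2 without replicate 2 (0.0605 to 0.108), and that of NDE2 without either snq2 deletion array (0.0532). NDI1 was no longer called in the erg6 deletion strain when its replicate 1 or 2 was dropped (0.0669 and 0.0684), nor in the snq2 deletion strain when replicate 1 or 2 there was (0.0824 and 0.274). The difference of NDE2 between the snq2 deletion and parental strains was lost without any one of the 4 parental and snq2 deletion arrays (0.117 to 0.191), and that of NDI1 between erg6 deletion and snq2 deletion without snq2 deletion replicate 2 (0.0568).

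Complex III passes electrons from coenzyme Q to cytochrome c. Of its 9 nuclear subunits, 5 fell and 2 rose in parental cells, with a median of -0.49, while 6 rose and 1 fell in the erg6 deletion strain, with a median of 0.59. In the snq2 deletion strain 6 rose and 2 fell, with a median of 0.38. Of all genes, 26.7% fell and 27.3% rose in parental cells, and 23.2% rose and 31.5% fell in the erg6 deletion strain. In the snq2 deletion strain 25.3% of all genes rose and 26.2% fell. The 2 of 9 that rose in parental cells and the 2 of 9 that fell in the snq2 deletion strain lay near these shares. The subunits that carry the redox groups, RIP1 and CYT1, showed the deepest parental falls, and the small subunit QCR10 alone of the 9 rose in parental cells and fell in the erg6 deletion strain.

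RIP1, the Rieske iron-sulfur protein, gave -1.89 and -1.86 in the parental replicates, 0.63 and 0.53 in those of the erg6 deletion and -0.78 and -0.66 in those of the snq2 deletion. CYT1, cytochrome c1, gave -1.64 and -1.38 in parental cells, 1.01 and 1.04 without ERG6 and -0.36 and -0.33 without SNQ2. All parental values of both genes lay below all snq2 deletion values, which in turn lay below 0 and below all erg6 deletion values. In parental cells the means were -1.87 ± 0.083 for RIP1, a ratio of 0.273 of untreated, and -1.51 ± 0.094 for CYT1, a ratio of 0.351. The erg6 deletion minus parental differences were 2.46 ± 0.12 (adjusted p = 0.000172) for RIP1 and 2.54 ± 0.13 (adjusted p = 0.000193) for CYT1, or 5.50-fold and 5.80-fold.

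QCR10, a small accessory subunit, gave 2.13 and 2.04 in the parental replicates, -1.34 and -1.09 in those of the erg6 deletion and 1.05 and 1.05 in those of the snq2 deletion. It was thus the highest member in parental cells and the lowest in the erg6 deletion strain. Its means were 2.08 ± 0.095 (adjusted p = 0.000114), -1.22 ± 0.095 (adjusted p = 0.000645) and 1.05 ± 0.095 (adjusted p = 0.000726) in the parental, erg6 deletion and snq2 deletion strains. The difference between the erg6 deletion and parental strains was -3.30 ± 0.13, a ratio of 0.102. In the parental strain QCR10 lay within the control-spot range, and the genes beside it in the R64 assembly did not share its pattern: OSH7 gave -0.91 and -0.50 in parental cells and 0.22 and 0.66 in the erg6 deletion strain, and LEU5 gave -0.29 and -0.51, then -0.38 and -0.055. The QCR10 difference between the snq2 deletion and parental strains, -1.04 ± 0.13, shrank to -0.48 after quantile normalization and did not pass (adjusted p = 0.0702).

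Among the structural subunits, QCR2, a core protein, gave -0.55 and -0.98 in parental cells, 1.33 and 1.25 without ERG6 and 0.36 and 0.40 without SNQ2. QCR7, which joins cytochrome b early in assembly, gave -0.46 and -0.51 in the parental replicates, 1.41 and 1.21 in those of the erg6 deletion and 0.66 and 0.85 in those of the snq2 deletion. QCR9 gave -0.59 and -0.64 in parental cells, 0.72 and 0.47 without ERG6 and 0.38 and 0.45 without SNQ2. In QCR2 and QCR7 the 3 strains formed separate steps with parental below 0 and both deletion strains above it. QCR9 had the same order, with its lower erg6 deletion array just above the snq2 deletion arrays.

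QCR6, the acidic hinge subunit, was near 0 in parental cells and high in the erg6 deletion strain, with 0.048 and -0.15 in the parental replicates, 1.24 and 1.26 in those of the erg6 deletion and 0.29 and 0.38 in those of the snq2 deletion. QCR8 gave 0.51 and 0.42 in parental cells, 0.26 and 0.13 without ERG6 and 0.52 and 0.26 without SNQ2, above 0 on all 6 arrays, with the parental and snq2 deletion arrays overlapping and both erg6 deletion arrays just below them. COR1, the other core protein, stayed within 0.24 of 0 on every array, with -0.019 and 0.24 in the parental replicates, -0.058 and -0.24 in those of the erg6 deletion and 0.031 and 0.026 in those of the snq2 deletion. COR1 and QCR2 together form the core of the complex, and only QCR2 passed the test in any strain, while their difference from each other was not tested.

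The QCR7 and QCR8 calls in parental cells were lost without parental replicate 1 (adjusted p 0.0756 to 0.12) or replicate 2 (0.0701 to 0.0865). In the snq2 deletion strain QCR2, QCR6, QCR8, QCR9 and CYT1 lost their calls without replicate 1 (0.0797 to 0.18), and the same genes but QCR8 without replicate 2 (0.129 to 0.236). The QCR2 difference between the erg6 deletion and snq2 deletion strains was lost without snq2 deletion replicate 2 (0.0503), and that of QCR7 without erg6 deletion replicate 1 (0.0691) or snq2 deletion replicate 1 (0.0944).

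Cytochrome c carries electrons from complex III to complex IV. CYC1 encodes the main isoform of aerated cells and CYC7 a minor isoform that is favoured when oxygen is low. Both fell in parental cells, and neither rose in either deletion strain. CYC1 gave -0.33 and -0.46 in the parental replicates, -0.077 and -0.11 in those of the erg6 deletion and 0.13 and 0.36 in those of the snq2 deletion. CYC7 gave -0.72 and -0.82 in parental cells, -0.67 and -0.43 without ERG6 and -0.10 and -0.019 without SNQ2. CYC1 was lowest in parental cells with the arrays of the 3 strains apart from each other, and its highest values were those of the snq2 deletion strain. CYC7 arrays lay below 0 throughout, and those of the erg6 deletion strain lay above the parental ones and below those of the snq2 deletion strain.

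In the erg6 deletion strain CYC7 fell (-0.55 ± 0.095, adjusted p = 0.00576), unlike the neighbouring enzymes of the chain, and CYC1 was at -0.092 ± 0.095 (adjusted p = 0.441). Neither differed past the threshold between the erg6 deletion and parental strains, at 0.30 ± 0.13 for CYC1 and 0.22 ± 0.13 for CYC7 (adjusted p = 0.105 and 0.208). Between the snq2 deletion and parental strains CYC1 was higher by 0.64 ± 0.13 (adjusted p = 0.0161) and CYC7 by 0.71 ± 0.13 (adjusted p = 0.0118). The parental CYC1 call was lost without replicate 1 (0.0813) or 2 (0.164), both snq2 deletion minus parental calls without parental replicate 1 (0.0567 to 0.0625), parental replicate 2 (0.0742 to 0.094) or snq2 deletion replicate 2 (0.0691 to 0.0794), and the CYC7 difference between the deletion strains without any single array but erg6 deletion replicate 2 (0.0605 to 0.124).

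Complex IV, cytochrome c oxidase, hands the electrons to oxygen. In parental cells 7 of its 9 nuclear genes fell and none rose, with a median of -0.78. In the erg6 deletion strain 8 rose and COX5B alone fell, with a median of 1.10. In the snq2 deletion strain 5 rose, none fell, and 4 did not pass, with a median of 0.48. The shares of all genes were 26.7% that fell and 27.3% that rose in parental cells. They were 23.2% that rose and 31.5% that fell in the erg6 deletion strain, and 25.3% and 26.2% in the snq2 deletion strain. The erg6 deletion minus parental difference passed for all 9, upward for 8 and downward for COX5B.

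COX5A and COX5B encode alternative forms of one subunit, of which COX5A is used in air and COX5B when oxygen is low. COX5A gave -1.70 and -1.88 in the parental replicates, 0.96 and 0.72 in those of the erg6 deletion and -0.41 and -0.22 in those of the snq2 deletion. COX5B gave -0.048 and -0.019 in parental cells, -0.66 and -0.73 without ERG6 and -0.12 and 0.0011 without SNQ2. The pair moved apart: COX5A was the lowest complex IV gene in parental cells (-1.79 ± 0.11, adjusted p = 0.00022, a ratio of 0.289 of untreated) where COX5B was at -0.034 ± 0.082 (adjusted p = 0.75). In the erg6 deletion strain COX5A rose (0.84 ± 0.11, adjusted p = 0.00238) and COX5B fell (-0.70 ± 0.082, adjusted p = 0.00185). Their erg6 deletion minus parental differences were 2.63 ± 0.15 and -0.66 ± 0.12.

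COX7, a small membrane subunit, was the highest member of all in both deletion strains, with -0.30 and -0.31 in the parental replicates, 1.72 and 1.72 in those of the erg6 deletion and 1.13 and 1.21 in those of the snq2 deletion. Its mean was 1.72 ± 0.078 (adjusted p = 0.000165), a 3.29-fold rise, in the erg6 deletion strain. In the snq2 deletion strain it was 1.17 ± 0.078 (adjusted p = 0.000308), 2.25-fold. The erg6 deletion mean lay below the control spot median of that strain, 1.76. COX12 gave -0.74 and -0.82 in parental cells, 1.34 and 1.44 without ERG6 and 0.87 and 1.01 without SNQ2. COX13 gave -1.04 and -1.17 in the parental replicates, 1.00 and 1.02 in those of the erg6 deletion and 0.51 and 0.63 in those of the snq2 deletion. For each of these 3 genes, both parental arrays were below 0 and all 4 arrays of the deletion strains above it.

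The ratios of COX6 were -1.28 and -1.29 in parental cells, 1.15 and 0.90 without ERG6 and -0.069 and -0.10 without SNQ2. COX8 gave -0.73 and -0.87 in the parental replicates, 1.17 and 1.25 in those of the erg6 deletion and 0.53 and 0.65 in those of the snq2 deletion, and COX9 -0.68 and -0.70 in parental cells, 1.08 and 1.13 without ERG6 and 0.29 and 0.43 without SNQ2. All 3 had separate steps by strain, and COX6 was the one whose snq2 deletion arrays lay on the negative side of 0. COX8 and COX9 rose in the snq2 deletion strain (0.59 ± 0.087 and 0.36 ± 0.083), while COX6 was at -0.086 ± 0.092 there and did not pass.

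COX4, a zinc-binding subunit, gave 0.21 and -1.44 in the parental replicates, 1.51 and 1.37 in those of the erg6 deletion and 0.49 and 0.47 in those of the snq2 deletion. Its parental replicates lay on both sides of 0 and 1.66 apart, the widest gap of any member in any strain. Its parental mean of -0.62 ± 0.36 did not pass (adjusted p = 0.204). The fit pools the spread over strains, so this gap also enters the equal standard errors of the deletion strains, whose COX4 replicates lay close together. With it, the snq2 deletion mean of 0.48 ± 0.36 did not pass (adjusted p = 0.319). The erg6 deletion minus parental difference of 2.06 ± 0.51 (adjusted p = 0.019) fell to 1.23 without parental replicate 2. The COX4 call in the erg6 deletion strain was lost without erg6 deletion replicate 1 or 2 or either snq2 deletion array, while its value there stayed at 1.37 to 1.51.

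Parental COX7 lost its call without replicate 1 (0.14) or 2 (0.15), and COX9 in the snq2 deletion strain without replicate 1 (0.0506) or 2 (0.132). Between the deletion strains COX12 and COX13 lost theirs without either parental array (0.0579 to 0.0612), erg6 deletion replicate 2 (0.077 to 0.0894) or snq2 deletion replicate 2 (0.0634 to 0.0702), and COX13 without erg6 deletion replicate 1 (0.0657). Without snq2 deletion replicate 1, COX7, COX8, COX12 and COX13 did (0.05 to 0.112).

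**Figure D3:**
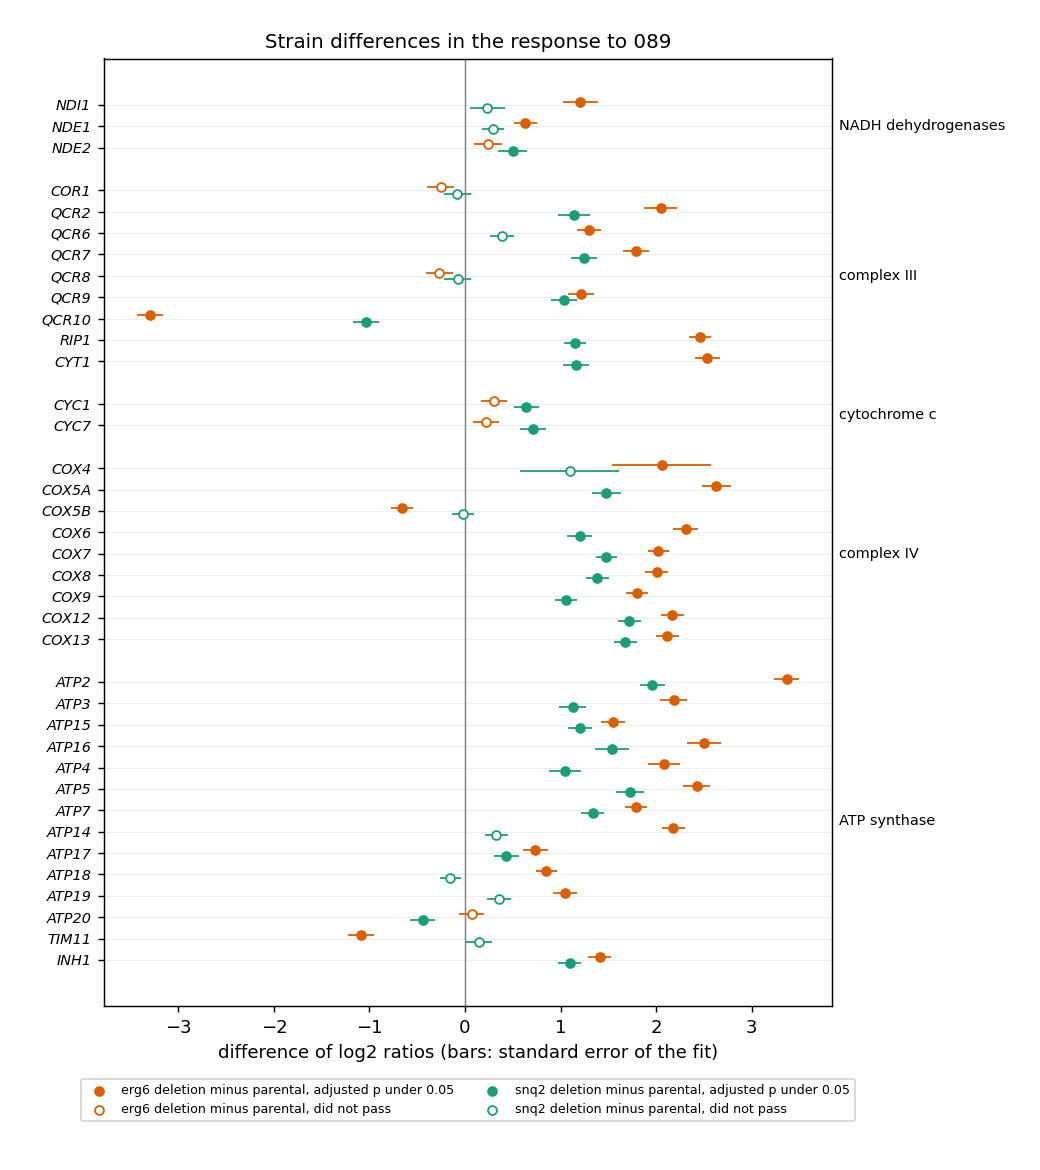
Difference of the mean log2 ratio between each deletion strain and the parental strain (x axis) for the 37 genes (y axis), with bars of 1 standard error of the fit. Filled points passed an adjusted p of 0.05, and the erg6 deletion differences lie to the right of the snq2 deletion ones for most genes. QCR10 at -3.30 and ATP2 at 3.37 mark the ends.

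The ATP synthase members divide into the F1 head, the stalk and Fo, the genes of its dimer form and the inhibitor INH1. In parental cells 3 of the 4 measured F1 genes and 5 of the 6 stalk and Fo genes fell, with medians of -1.38 and -0.71, while of the 3 dimer genes 1 rose and none fell. In the erg6 deletion strain all 4 F1 genes and all 6 stalk and Fo genes rose, with medians of 1.04 and 0.89. In the snq2 deletion strain 6 of 14 genes rose, 3 fell and 5 did not pass, with a median of 0.027. Among all genes, 27.3% rose and 26.7% fell in parental cells, and 23.2% rose and 31.5% fell in the erg6 deletion strain. In the snq2 deletion strain 25.3% of all genes rose and 26.2% fell. The 3 of 14 that fell in the snq2 deletion strain and the 1 of 3 dimer genes that rose in parental cells lay near these shares.

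ATP2 encodes the catalytic beta subunit. It gave -2.31 and -2.32 in the parental replicates, 0.94 and 1.16 in those of the erg6 deletion and -0.41 and -0.31 in those of the snq2 deletion. This was the lowest value of any member in parental cells, -2.32 ± 0.092 (adjusted p = 8.29e-05), a ratio of 0.201 of untreated. In the erg6 deletion strain ATP2 rose to 2.07-fold (1.05 ± 0.092, adjusted p = 0.000872), and in the snq2 deletion strain it fell by a smaller amount (-0.36 ± 0.092, adjusted p = 0.0227). The difference between the erg6 deletion and parental strains, 3.37 ± 0.13 (adjusted p = 0.000138) or 10.3-fold, was the largest of the 37, and that between the snq2 deletion and parental strains, 1.96 ± 0.13, was the largest there too.

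The central stalk genes of F1 followed the same order to differing degrees. ATP3, the gamma subunit, gave -1.10 and -1.21 in parental cells, 0.91 and 1.15 without ERG6 and 0.048 and -0.11 without SNQ2. ATP16, the delta subunit, gave -1.80 and -1.41 in the parental replicates, 0.84 and 0.96 in those of the erg6 deletion and -0.18 and 0.043 in those of the snq2 deletion. ATP15, the epsilon subunit, gave -0.094 and -0.23 in parental cells, 1.46 and 1.33 without ERG6 and 0.98 and 1.11 without SNQ2. ATP3 and ATP16 fell in parental cells to 0.449 and 0.328 of untreated and were near 0 in the snq2 deletion strain. ATP15 did not pass in parental cells (-0.16 ± 0.089, adjusted p = 0.183) and rose in both deletion strains, 2.63-fold and 2.06-fold.

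The peripheral stalk holds F1 against Fo. Its subunit b, ATP4, gave -1.47 and -1.08 in the parental replicates, 0.85 and 0.77 in those of the erg6 deletion and -0.27 and -0.19 in those of the snq2 deletion. ATP5, the oligomycin sensitivity factor, gave -1.05 and -0.94 in parental cells, 1.55 and 1.31 without ERG6 and 0.65 and 0.82 without SNQ2, and ATP7, subunit d, -0.40 and -0.47 in the parental replicates, 1.41 and 1.29 in those of the erg6 deletion and 0.88 and 0.93 in those of the snq2 deletion. ATP5 and ATP7 rose in both deletion strains, whereas ATP4 did not pass in the snq2 deletion strain (-0.23 ± 0.12, adjusted p = 0.156).

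ATP14, subunit h of the same stalk, set the deletion strains farthest apart among the genes that were higher in the erg6 deletion strain. It gave -1.75 and -1.62 in the parental replicates, 0.49 and 0.50 in those of the erg6 deletion and -1.30 and -1.41 in those of the snq2 deletion. In the snq2 deletion strain it fell nearly as far as in parental cells, -1.36 ± 0.084 (adjusted p = 0.000287) against -1.68 ± 0.084 (adjusted p = 0.000151), and the difference of 0.33 ± 0.12 between them did not pass (adjusted p = 0.0794). The erg6 deletion minus snq2 deletion difference was 1.85 ± 0.12 (adjusted p = 0.000612), or 3.61-fold.

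In Fo, ATP17, subunit f, gave -0.40 and -0.30 in parental cells, 0.44 and 0.33 without ERG6 and 0.18 and -0.015 without SNQ2. ATP18, subunit i/j, gave 0.11 and 0.14 in the parental replicates, 0.96 and 0.99 in those of the erg6 deletion and -0.077 and 0.016 in those of the snq2 deletion. ATP17 stayed within 0.44 of 0 on every array, and ATP18 stood out in the erg6 deletion strain, where both arrays were near 1 and the other 4 within 0.14 of 0. The ATP18 difference was 0.85 ± 0.11 (adjusted p = 0.00194) between the erg6 deletion and parental strains and 1.01 ± 0.11 (adjusted p = 0.00183) between the erg6 deletion and snq2 deletion strains.

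The dimer genes did not move as a group. TIM11, subunit e, gave 0.62 and 0.45 in the parental replicates, -0.58 and -0.53 in those of the erg6 deletion and 0.78 and 0.58 in those of the snq2 deletion. ATP20, subunit g, which joins subunit e in the dimer, gave -0.10 and 0.056 in parental cells, 0.11 and -0.019 without ERG6 and -0.40 and -0.54 without SNQ2. ATP19, subunit k, gave 0.21 and 0.16 in the parental replicates, 1.19 and 1.28 in those of the erg6 deletion and 0.46 and 0.63 in those of the snq2 deletion. TIM11 rose in parental cells (0.54 ± 0.095, adjusted p = 0.0061) and in the snq2 deletion strain (0.68 ± 0.095, adjusted p = 0.00292) and fell in the erg6 deletion strain (-0.56 ± 0.095, adjusted p = 0.00558), the same directions as QCR10. In the parental and erg6 deletion strains these are the reverse of most members, while in the snq2 deletion strain most called members rose too. ATP20 passed in the snq2 deletion strain alone, downward at -0.47 ± 0.093, and ATP19 rose in both deletion strains.

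INH1, a small protein that blocks the hydrolysis of ATP by the enzyme, gave -0.076 and -0.078 in parental cells, 1.36 and 1.31 without ERG6 and 0.93 and 1.11 without SNQ2. Its parental arrays lay close together near 0, and it rose 2.52-fold in the erg6 deletion strain (adjusted p = 0.000429) and 2.03-fold in the snq2 deletion strain (adjusted p = 0.000579). The INH1 difference was 1.41 ± 0.12 between the erg6 deletion and parental strains (adjusted p = 0.000518) and 1.10 ± 0.12 between the snq2 deletion and parental strains (adjusted p = 0.00236), and 0.31 ± 0.12 between the deletion strains, which did not pass (adjusted p = 0.0814).

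Of the ATP synthase calls, those of ATP7, ATP17 and TIM11 in parental cells were lost without replicate 1 (0.0647 to 0.191) and those of ATP7 and ATP17 without replicate 2 (0.0861 to 0.107). ATP17 in the erg6 deletion strain was lost without replicate 1 (0.0981), and in the snq2 deletion strain ATP2 without either parental array (0.0518) or replicate 1 (0.152), and ATP2, ATP19 and ATP20 without replicate 2 (0.0556 to 0.101). The snq2 deletion minus parental calls of ATP17 and ATP20 were lost without any one of the 4 parental and snq2 deletion arrays (0.0795 to 0.202), and between the deletion strains ATP7 was lost without either parental array (0.0551), ATP7 and ATP20 without erg6 deletion replicate 1 (0.0728 to 0.0794) or snq2 deletion replicate 2 (0.0759 to 0.11), and ATP5, ATP7 and ATP20 without snq2 deletion replicate 1 (0.0544 to 0.0894).

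The nuclear members were set beside other genes of the same pathway. The counts of these lists are to be read beside the shares of all genes. Those were 27.3% that rose and 26.7% that fell in parental cells, 23.2% and 31.5% in the erg6 deletion strain, and 25.3% and 26.2% in the snq2 deletion strain. Complex II, succinate dehydrogenase, passes electrons from the citric acid cycle to coenzyme Q, and its 4 genes moved as most members did: all 4 fell in parental cells and all 4 rose in the erg6 deletion strain, while 3 rose in the snq2 deletion strain. SDH2, the iron-sulfur subunit, gave -1.72 and -1.73 in parental cells, 1.05 and 1.10 without ERG6 and -0.11 and -0.039 without SNQ2. SDH3, a membrane anchor, gave -1.66 and -1.63 in the parental replicates, 1.80 and 1.59 in those of the erg6 deletion and 1.37 and 1.45 in those of the snq2 deletion, so that its arrays in both deletion strains were all at or above 1.37 and its parental arrays at or below -1.63.

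The subunits encoded in mitochondrial DNA behaved differently from their nuclear partners. Of 7 measured, 4 rose and 2 fell in parental cells, with a median of 1.33, 1 rose and 2 fell in the erg6 deletion strain, with a median of 0.038, and 4 rose and 2 fell in the snq2 deletion strain, with a median of 0.58. COX1, the catalytic subunit of complex IV, gave 4.18 and 3.85 in the parental replicates, 0.41 and 0.89 in those of the erg6 deletion and 1.37 and 1.82 in those of the snq2 deletion. ATP8, a small Fo subunit, gave 4.83 and 4.58 in parental cells, 0.13 and 0.34 without ERG6 and 1.39 and 1.75 without SNQ2. ATP6, the proton channel subunit, gave 3.63 and 4.30 in the parental replicates, 0.063 and 0.34 in those of the erg6 deletion and 1.04 and 1.54 in those of the snq2 deletion. These 3 had parental arrays of at least 3.63, above those of every other gene of the pathway lists, and lower but positive arrays in both deletion strains.

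Not every mitochondrial transcript rose. OLI1, the ring subunit of Fo, fell in all 3 strains, with means of -0.83 ± 0.090, -0.77 ± 0.090 and -1.45 ± 0.090, and COX2, the subunit of complex IV that takes electrons from cytochrome c, was at -0.45 ± 0.10, 0.038 ± 0.10 and -0.48 ± 0.10. Erg6 deletion minus parental differences were -3.36 ± 0.25 for COX1 (adjusted p = 0.000367) and -4.47 ± 0.18 for ATP8 (adjusted p = 0.000138), opposite in sign to those of COX5A and ATP2. The parental values of COX1, ATP8 and ATP6 lay above the central 95% of the control spots. The plot of group medians shows most nuclear sets and the mitochondrial set on opposite sides of 0 in parental cells. The ATP synthase dimer genes, at 0.19, and the complex IV assembly genes, at 0.013, lay above 0 as the mitochondrial set did.

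**Figure D4:**
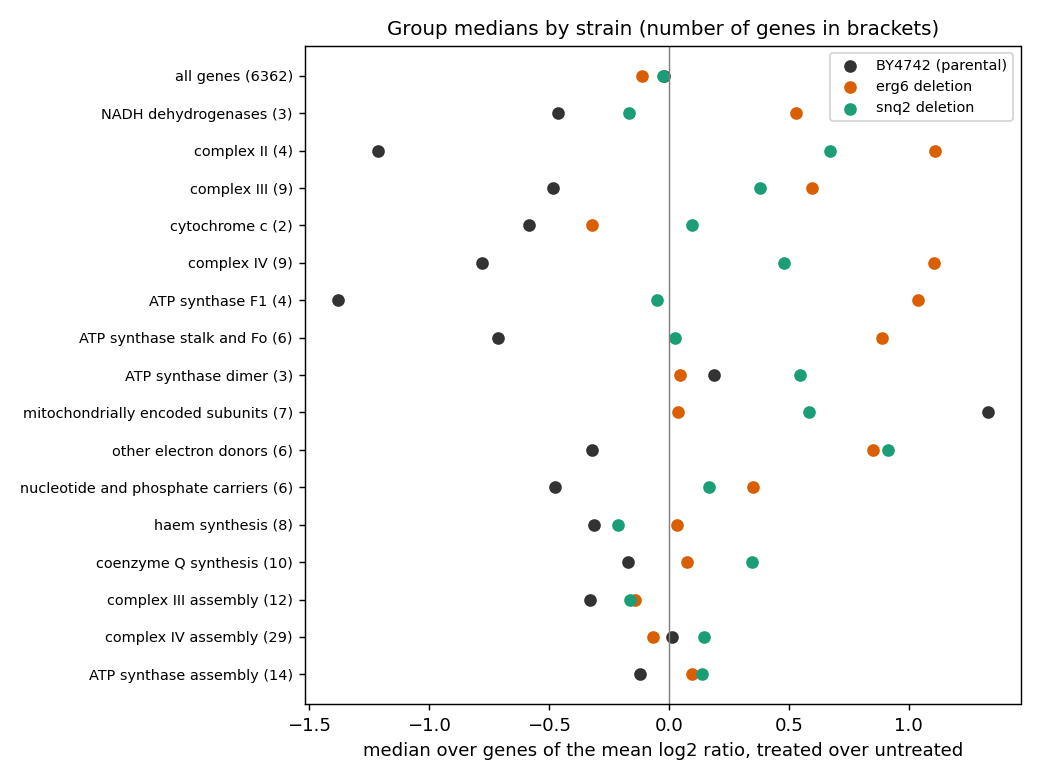
Median over genes of the mean log2 ratio (x axis) in each of the 3 strains (colours) for all genes, the enzyme groups and the pathway lists (y axis, number of genes in brackets). Nuclear enzyme groups run from parental on the left to erg6 deletion on the right, except cytochrome c and the dimer genes, and the mitochondrially encoded subunits have their highest median, 1.33, in the parental strain.

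Among 14 regulators of respiratory genes, 1 rose and 6 fell in parental cells, 4 rose and 4 fell in the erg6 deletion strain, and 3 rose and 6 fell in the snq2 deletion strain. HAP4, the subunit that limits the activity of the Hap2/3/4/5 activator, gave -2.35 and -2.02 in the parental replicates, 0.34 and -0.023 in those of the erg6 deletion and 0.12 and 0.077 in those of the snq2 deletion. It fell to a mean of -2.18 ± 0.13 in parental cells (adjusted p = 0.000215) and did not pass in either deletion strain, a difference of 2.34 ± 0.18 for erg6 deletion (adjusted p = 0.000424) and 2.28 ± 0.18 for snq2 deletion (adjusted p = 0.00108). HAP1, a haem-dependent activator, gave 0.0086 and -0.27 in parental cells, 1.12 and 0.74 without ERG6 and -0.60 and -0.64 without SNQ2, rising in the erg6 deletion strain (0.93 ± 0.13) and falling in the snq2 deletion strain (-0.62 ± 0.13). RTG2, a sensor of the retrograde response from mitochondria to nucleus, was at 2.03 ± 0.086, -0.96 ± 0.086 and 0.81 ± 0.086 in the parental, erg6 deletion and snq2 deletion strains, opposite in sign to most members in the former pair. CAT8, an activator of genes for growth without glucose, rose in the erg6 deletion (0.73 ± 0.10) and snq2 deletion (1.10 ± 0.10) strains and was at -0.16 ± 0.10 in parental cells.

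A list of other electron donors held 6 genes, and whether each of them feeds the respiratory chain was not examined. All 6 rose in each deletion strain, while in parental cells 1 rose and 3 fell. MCR1, an NADH-cytochrome b5 reductase of mitochondria, gave -0.57 and -0.74 in the parental replicates, 1.34 and 1.44 in those of the erg6 deletion and 1.09 and 1.20 in those of the snq2 deletion. GUT2, the glycerol-3-phosphate dehydrogenase, gave -0.63 and -0.74 in parental cells, 1.08 and 1.22 without ERG6 and 1.05 and 1.03 without SNQ2. CYB2, the L-lactate dehydrogenase that reduces cytochrome c, gave 0.55 and 0.16 in the parental replicates, 0.77 and 0.74 in those of the erg6 deletion and 1.96 and 2.27 in those of the snq2 deletion. MCR1 and GUT2 had parental arrays below 0 and deletion arrays near or above 1, and CYB2 was highest in the snq2 deletion strain.

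Of 6 nucleotide, phosphate and outer membrane carriers, 3 fell and none rose in parental cells, 3 rose and 2 fell in the erg6 deletion strain, and 1 rose and 1 fell in the snq2 deletion strain. POR1, the main outer membrane porin, gave -1.41 and -1.62 in parental cells, 1.37 and 1.39 without ERG6 and 0.33 and 0.36 without SNQ2. It showed the steps of most members, while MIR1, the phosphate carrier, fell in the parental (-0.87 ± 0.095) and snq2 deletion (-0.89 ± 0.095) strains and was at 0.25 ± 0.095 in the erg6 deletion strain.

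The assembly and cofactor genes moved less together. Of 12 complex III assembly genes, 1 rose and 5 fell in parental cells, 2 rose and 2 fell in the erg6 deletion strain, and 0 rose and 2 fell in the snq2 deletion strain. Of 29 complex IV assembly genes with a value, 8 rose and 8 fell in parental cells, 6 rose and 8 fell in the erg6 deletion strain, and 9 rose and 3 fell in the snq2 deletion strain. The parental and erg6 deletion counts of this list lay near the shares of all genes. COA1, a complex IV assembly factor, moved as the enzyme did, from -1.29 ± 0.12 in parental cells to 0.77 ± 0.12 in the erg6 deletion strain. PET111, which activates translation of COX2 mRNA, was at -4.20 ± 0.14 in the erg6 deletion strain, among the genes at or below -3 on those arrays. Of 14 ATP synthase assembly and regulatory genes, 2 rose and 5 fell in parental cells, 3 rose and 4 fell in the erg6 deletion strain, and 6 rose and 2 fell in the snq2 deletion strain. STF2, a stabilising factor linked to INH1, was at -1.07 ± 0.088, 1.18 ± 0.088 and 1.58 ± 0.088 in the parental, erg6 deletion and snq2 deletion strains.

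Of 8 haem synthesis genes, 2 rose and 4 fell in parental cells, 1 rose and none fell in the erg6 deletion strain, and 2 rose and 3 fell in the snq2 deletion strain. HEM2, porphobilinogen synthase, was at -1.53 ± 0.087, -0.035 ± 0.087 and -0.59 ± 0.087, and HEM15, ferrochelatase, at 0.064 ± 0.13, 1.02 ± 0.13 and 1.24 ± 0.13, in the parental, erg6 deletion and snq2 deletion strains. Of 10 coenzyme Q genes, 1 rose and 3 fell in parental cells, 2 rose and 2 fell in the erg6 deletion strain, and 4 rose and 1 fell in the snq2 deletion strain. COQ5, a methyltransferase of that path, was at -0.012 ± 0.094, 1.27 ± 0.094 and 1.25 ± 0.094 in the same order.

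Within the 37 members, the annotated span of the gene and the response gave a negative Spearman rho in each strain. It was -0.36 in parental cells, -0.16 in the erg6 deletion strain and -0.46 in the snq2 deletion strain. Over all annotated genes rho was -0.061, -0.012 and -0.13 in the same order. These values describe genes that share the same arrays, and carry no p.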

How the data were processed

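Total RNA of 3 yeast strains was measured on 6 arrays with 2 colours, 2 per strain. The cDNA of treated cells carried Cy5 and that of untreated cells of the same strain Cy3 on all 6, per the labels, so a dye effect on a gene stays in each response. For 7045 features the authors deposited a signed number on each array, with 0 missing, and these are taken here as log2 ratios. The scanner was a GenePix 4000B, per the labels' protocols. Background correction, normalization, log base and direction (not given in the sources used here) may shape the values, and a natural log would make each fold larger. Depth does not apply to these ratios, and signal over background could not be computed, so the number of arrays limits the precision.

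Blank (144) and empty (539) features were kept out of the tests and served as control spots. The remaining 6362 features are genes, of which 5826 were found by locus tag in RefSeq's R64 annotation, used only for names, spans and neighbours, and 536 keep the file's name. Probe and gene sequences were not analysed here. The model was limma 3.58.1 under R 4.3.3, with the strain means as coefficients, all 6 arrays in the fit and eBayes shrinkage of the variances (3 residual, 2.45 prior degrees of freedom). Each of 6 contrasts had its own Benjamini-Hochberg adjustment over all 6362 genes and a threshold of 0.05, and the p-values reflect the spread between these arrays, pooled over strains. The code was tested on simulated data.

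The members and the pathway lists were chosen with earlier results of these data known. Every member is named. Array values are given for the highest and lowest member of each enzyme and strain, for members whose direction goes against their enzyme's median or differs between strains, for isoform pairs and for single-role genes. Of each pathway list, up to 4 genes with the smallest p in any strain could be named, and also HAP4 and HAP1. COX2 was named after its values were seen. Alternatives were arrays centred, scaled or quantile-normalised, a replicate block, each array left out, a fit to the compared strains, array weights, robust eBayes, a minimum of 1.5-fold, annotated genes alone, and genes at or below -3 left out. Replicate deviations correlated at 0.095, -0.042 and -0.0020 between strains, so arrays of the same number showed little shared deviation. With 2 arrays per strain this cannot show whether they were handled together.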

Additional observations from a re-analysis of the deposited data

Results flagged for a closer look

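Differences between strains under the same treatment drew attention where a gene was called in opposite directions in 2 strains and the difference itself passed limma at an adjusted p of 0.05. Between the erg6 deletion and parental strains 23 of the 37 respiratory chain and ATP synthase genes met this, with ATP2 at 3.37, QCR10 at -3.30 and COX5A at 2.63 the farthest apart on the log2 scale. Of the 23, 21 fell in parental cells and rose in the erg6 deletion strain, and QCR10 and TIM11 did the reverse. Over all genes these 2 pairs of calls were seen in 8.36% and 10.1%, whether or not the difference passed.

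Between the snq2 deletion and parental strains 10 genes met it, led by ATP5 at 1.73, COX12 at 1.72 and COX13 at 1.68. This comparison shares the parental arrays with the one before.

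Between the erg6 deletion and snq2 deletion strains 7 genes met it, namely NDI1, RIP1, CYT1, ATP2, ATP14, QCR10 and TIM11. The largest were QCR10 at -2.26, ATP14 at 1.85 and ATP2 at 1.41. The share of all genes that meet the whole rule was not computed for any of these comparisons, so the counts are not set against it. With 2 arrays per strain, single arrays that stand apart within a strain could not be screened for.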

How the results depend on the processing

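Among the 37 members, 28 passed in the parental strain, 32 in the erg6 deletion strain and 24 in the snq2 deletion strain, 31 between erg6 deletion and parental, 26 between snq2 deletion and parental and 27 between the deletion strains. No called result reversed its sign under any alternative tried. Results that did not pass could change sign: COX4 in the parental strain went from -0.62 to 0.21 without parental replicate 2. Requiring a change above 1.5-fold left 12 members in the parental strain (1 higher, 11 lower), 19 in the erg6 deletion strain (18 and 1), 7 in the snq2 deletion strain (6 and 1), 26 between erg6 deletion and parental, 17 between snq2 deletion and parental (17 and 0) and 9 between the deletion strains (7 and 2). Leaving out 1 array gave 19 to 28, 29 to 32, 15 to 25, 31, 21 to 26 and 18 to 25 members in the same order, and the 15 came without snq2 deletion replicate 2. The remaining alternatives kept each count within 1.5 times.

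The arrays share only a replicate number, and with it as a replicate block 28, 32, 22, 31, 23 and 25 members passed in the same order. The calls of NDI1 and QCR2 in the snq2 deletion strain, of NDE2, ATP17 and ATP20 between snq2 deletion and parental, and of COX12 and COX13 between the deletion strains were lost there. Quantile normalization ended the calls of CYT1 in the snq2 deletion strain and of QCR10 and ATP17 between snq2 deletion and parental, and, as centring did, of CYC7 between the deletion strains. It also moved called values by over 1.5 times: in the parental strain RIP1 to -2.87, COX5A to -2.72 and ATP14 to -2.54, between snq2 deletion and parental RIP1 to 2.17 and COX5A to 2.37, and between the deletion strains COX7 to 0.89. Centring each array raised every erg6 deletion value by 0.11. Fitting the compared strains alone ended the erg6 deletion calls of NDE2, QCR9, CYC7, ATP14 and ATP17 and the calls of CYC7, COX12, COX13 and ATP7 between the deletion strains, and array weights those of NDI1 and COX4 in the erg6 deletion strain and QCR2 in the snq2 deletion strain. For the calls lost under these settings, the cause was not tested. With 2 arrays per strain and no signal over background, small changes and dim genes cannot be judged from these ratios.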
